A study of Mus musculus with 6 samples.

Results

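The 10 genes described here belong to fatty acid oxidation and to the response to peroxisome proliferator-activated receptors (PPARs). They were chosen by symbol, as a list of names and with earlier results of these data known. All 10 are among the 24848 genes of the deposited expression table. They are the receptor genes Pparg and Ppard, the oxidation genes Cpt1a, Cpt2, Hadha and Acadl, and the PPAR target and lipid handling genes Angptl4, Fabp4, Fabp5 and Plin2. Messenger RNA was measured in RAW 264.7, a mouse macrophage-like tumour line, in 3 libraries of cells labelled wild type (WT) and 3 of cells labelled APOBEC1 KO, a knockout of the RNA-editing cytidine deaminase APOBEC1. Both groups were grown in the same high-glucose medium with serum, with no treatment named in the labels, and each library came from its own plate. The sources used here do not give how the knockout was made or whether it is a single clone. The effect of the knockout therefore cannot be told apart from any other difference between the lines. The p-values rest on the variation among plates.

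PPARs are nuclear receptors that bind fatty acids and their derivatives, pair with a retinoid X receptor (RXR) and bind DNA at a pair of AGGTCA-like hexamers spaced by a single base. In macrophages PPARγ and PPARδ raise genes of lipid uptake, storage and oxidation when lipid enters the cell. Long-chain fatty acids are bound to carnitine by CPT1 at the outer mitochondrial membrane, carried inward, released by CPT2 and shortened by acyl-CoA dehydrogenases and the trifunctional protein.

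Levels are read counts scaled to the same total in each library (CPM), and 50493447 to 70411383 reads per library lay in genes. Apobec1 itself had 373, 431 and 396 CPM in WT and 339, 340 and 361 CPM in KO (log2 fold change -0.20 ± 0.07 SE, adjusted p = 0.0663). Under 5 of 19 alternative settings it was called lower. The median log2 fold change of the 517 tested genes on its chromosome, 6, was -0.16, and the part of this in the Apobec1 difference was not tested. Since the kind of edit is not in the labels, the level of Apobec1 does not check them. All 8 macrophage markers examined, among them Cd68, Csf1r and Lyz2, were above 1 CPM in every library, with a sum of 3122 to 3223 CPM in WT and 3439 to 3794 CPM in KO. Of them Lyz2 and Spi1 were called higher in KO (log2 fold change 0.80 and 0.39, adjusted p = 0.000506 and 0.0114) and Adgre1 and Fcgr1 lower (-0.50 and -0.30, adjusted p = 0.00245 and 0.0137). Without Lyz2 the sum was 2420 to 2559 CPM in WT and 2296 to 2443 CPM in KO, and the groups overlapped. The part of these markers in the results below was not tested. Of 4 adipocyte markers 0 were tested, and their summed level was 0.0171 to 0.0990 CPM in WT and 0.0450 to 0.0852 CPM in KO. The 4 lymphocyte markers were listed at 0 in all libraries, and the fibroblast and epithelial markers summed to at most 0.0300 and 0.114 CPM.

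Of the 10 genes, 5 differed between the genotypes. Cpt1a, the entry enzyme of mitochondrial oxidation, was 1.61-fold higher in KO, while Angptl4, Fabp4, Fabp5 and Ppard were lower, at 0.517, 0.635, 0.774 and 0.736 of the WT level. Cpt2, Hadha, Acadl and Plin2 were not called, and Pparg was below the minimum level for the test. The test was limma on log2(CPM + 0.5) over the 10614 genes that reached 1 CPM in at least 3 libraries, with a call at a Benjamini-Hochberg adjusted p under 0.05. It called 30.4% of all tested genes, 13.5% higher and 16.9% lower in KO. EdgeR and DESeq2 on the recovered reads called 31.6% and 35.4% of these genes, and each also called 5 of the 10, with 1 higher and 4 lower. The 9 tested genes were above the minimum in every library of both groups, so none passed through 1 group alone. Their median log2 fold change was -0.09, against -0.02 over all tested genes. The groups did not overlap for 8 of the 9, against 46.4% of all tested genes. An exact two-sided permutation test of a single gene cannot go below p = 0.1 with 3 against 3 libraries.

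**Figure D1:**
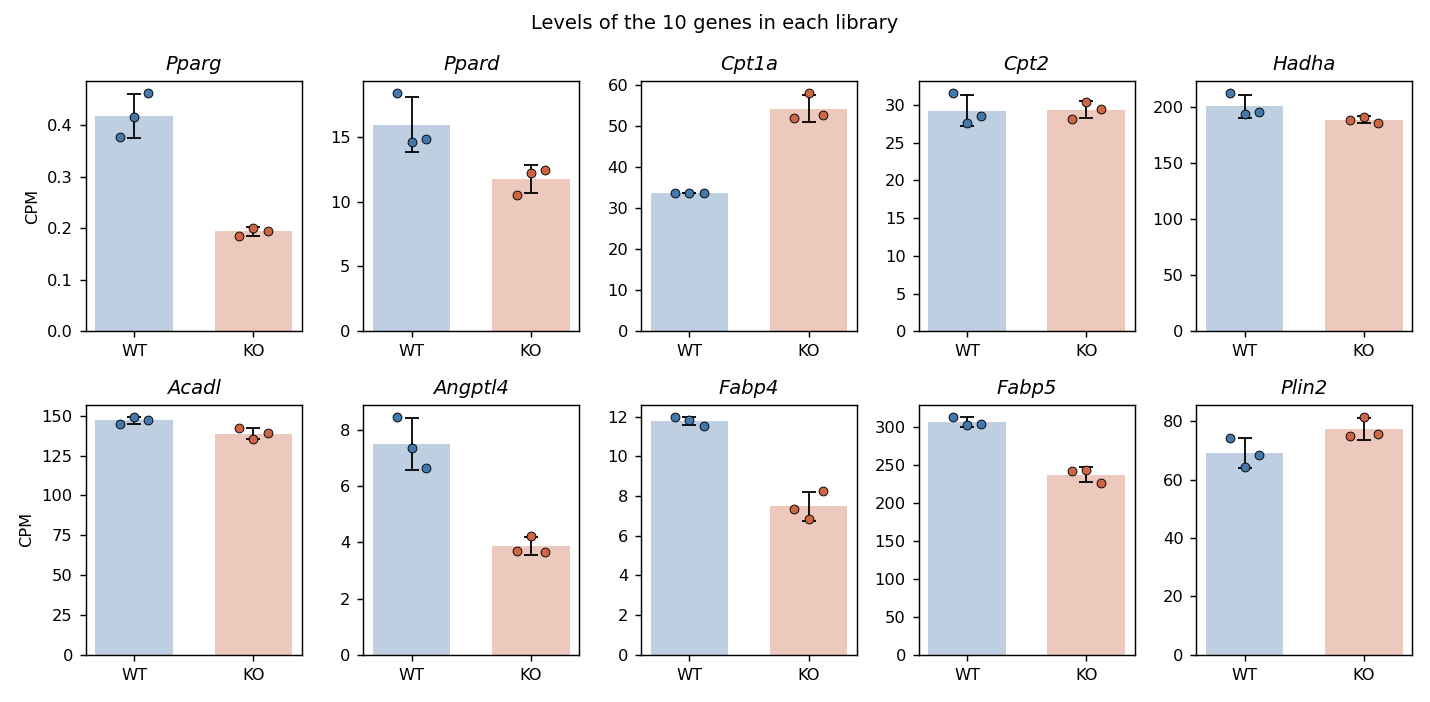
Level of each of the 10 genes in CPM (vertical axis, from 0) in the WT and KO libraries; points are libraries, bars group means and whiskers ± SD (n = 3). Cpt1a is higher in every KO library, and Angptl4, Fabp4, Fabp5, Ppard and Pparg are lower in every KO library. Plin2 is also higher, and Hadha and Acadl lower, in every KO library, though these were not called. For Cpt2 the groups overlap.

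Levels of different genes were compared after division by the length of the gene's protein-coding mRNA. In WT, Fabp5 stood highest at 311 ± 6.17 CPM per kb (SD, n = 3), followed by Acadl (76.7 ± 1.26), Hadha (50.01 ± 2.54) and Plin2 (36.6 ± 2.69). Below these stood Fabp4 at 13.1 ± 0.243 and Cpt2 at 12.3 ± 0.875 CPM per kb, whose libraries overlapped, so that their order is not resolved. Cpt1a had 7.80 ± 0.0192, Ppard 4.87 ± 0.650, Angptl4 2.26 ± 0.280 and Pparg 0.176 ± 0.0181 CPM per kb. All other neighbours in this order did not overlap. In KO Cpt1a and Fabp4 exchanged places on the same scale. Cpt1a, at 12.6 ± 0.777 CPM per kb, stood beside Cpt2, at 12.4 ± 0.469, with libraries that overlapped, and Fabp4, at 8.35 ± 0.803, came after both and did not overlap Cpt2. The length used matters most for Fabp4, whose mRNA measures 0.896 kb and whose annotated exons of any kind cover 4.489 kb. With the latter the WT level of Fabp4 is 2.62 CPM per kb, below that of Cpt1a (4.41 CPM per kb). The top rank and the place of Cpt1a in KO also depend on the length. With all annotated exons the KO mean of Fabp5 is 66.6 CPM per kb, below that of Acadl (69.2). The KO mean of Cpt1a is then 7.10 CPM per kb, below that of Cpt2 (12.3).

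**Figure D2:**
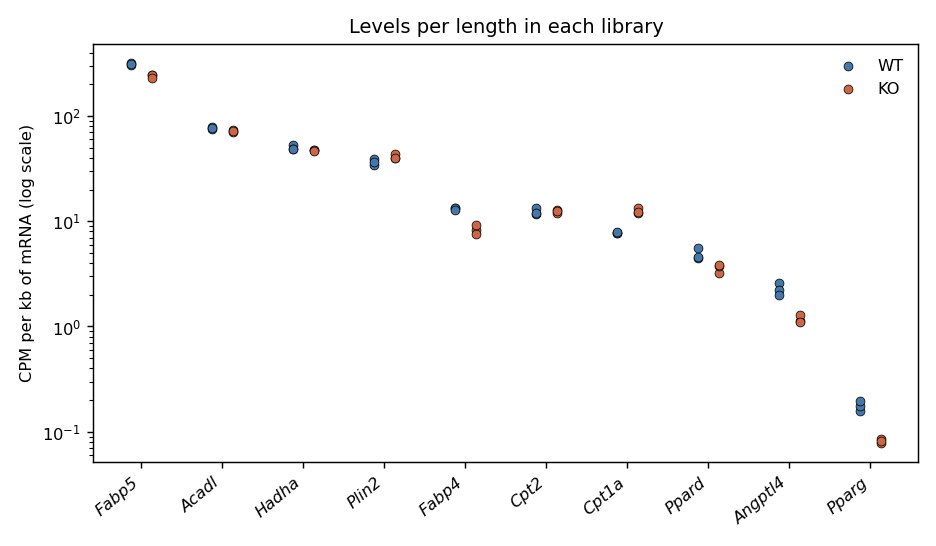
Level of each gene in CPM per kb of protein-coding mRNA, on a log axis, in the 3 WT and 3 KO libraries; each point is a library. With this length Fabp5 is highest and Pparg lowest in both groups. Cpt1a lies below Cpt2 in WT (7.80 against 12.3) and beside it in KO (12.6 against 12.4). With the length of all annotated exons, the KO mean of Fabp5 is below that of Acadl (66.6 against 69.2). That of Cpt1a is then below that of Cpt2 (7.10 against 12.3).

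Pparg and Ppard encode the receptors PPARγ and PPARδ. Ppard (ENSMUSG00000002250.16, mm10 chromosome 17, 28232700 to 28301474, plus strand) had 18.4, 14.6 and 14.8 CPM in the WT libraries and 10.5, 12.2 and 12.5 CPM in the KO libraries. Every KO value lay below every WT value. However, the WT libraries spread more than for any other of the 10 genes (coefficient of variation 13.4%, 3.29% from counting alone). The log2 fold change was -0.42 ± 0.11 (SE), with an adjusted p = 0.0265. This call was lost under 4 of 19 alternatives. It was lost without KO replicate 1 (log2 fold change -0.35, adjusted p = 0.108) and without KO replicate 2 (-0.45, adjusted p = 0.0624). The others were quantile normalization (-0.32, adjusted p = 0.106) and limma with the replicate number as a block (-0.42, adjusted p = 0.0778).

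Pparg (ENSMUSG00000000440.12, chromosome 6, 115360951 to 115490399, plus strand) was close to the limit of detection. It had 0.376, 0.415 and 0.462 CPM in WT and 0.185, 0.201 and 0.195 CPM in KO, which are 19, 28 and 27 reads against 13, 12 and 13 reads. A count of 0 would allow up to 3 reads, so all 6 libraries are above that limit. Summed over libraries, 74 WT and 38 KO reads give a KO to WT ratio of 0.460, with a 95% exact counting interval of 0.303 to 0.689, which covers counting error only. Without a filter on low values limma gave a log2 fold change of -0.40 (adjusted p = 0.00185), and edgeR on recovered reads of all genes above 0, chosen after seeing the data, gave -1.06 (adjusted p = 0.0135). On the limma scale the pseudocount of 0.5 exceeds the level of this gene. The median log2 fold change of the 517 tested genes on chromosome 6 was -0.16, and the part of this in the Pparg difference was not tested. Per length of protein-coding mRNA, Ppard exceeded Pparg 35.5-fold, 25.5-fold and 23.3-fold in WT and 41.3-fold, 44.1-fold and 46.4-fold in KO. The size of this excess depends on the length used and rests on the few Pparg reads. Over all annotated exons it is smaller, with means of 2.12 CPM per kb for Ppard and 0.142 for Pparg in WT. In KO these means are 1.56 and 0.0655.

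The start-site windows of these genes were read for the hexamer, since the receptors bind pairs of it. RefSeq windows on GRCm38.p6, from 250 bases before to 50 after a transcript start, were at hand for 7 of the 10 genes (9 windows, 3 of them for Pparg). Angptl4, Fabp4 and Fabp5, all called lower in KO, had no window. AGGTCA on either strand was found in 4 of the 9 windows, and in 16.3% of all 32851 windows of this length. The paired element AGGTCANAGGTCA was in 0 of the 9 and in 0.0396% of all windows. The 4 matches are shown in the direction of the gene, with the hexamer in capitals (TGACCT is AGGTCA on the opposite strand). They fall in Cpt1a (higher in KO), Plin2 (not called) and Pparg (lower but below the test minimum). Ppard, the only gene called lower that had a window, holds no match, so these windows cannot compare the called responses.
Cpt1a, chr19:3323195-3323224, plus strand: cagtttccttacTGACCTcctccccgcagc
Plin2, chr4:86670260-86670289, minus strand: tttcaggaccccTGACCTaagtcagacagc
Pparg, chr6:115361104-115361133, plus strand: agccgccgcctcAGGTCAgagtcgccccgg
Pparg, second start, chr6:115362328-115362357, plus strand: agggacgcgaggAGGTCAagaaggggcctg
Counted from its first base, the hexamer begins 94 bases before the RefSeq start in Cpt1a, 218 in Plin2, and 28 and 9 in the windows of Pparg. The annotated gene spans printed in this report can begin elsewhere. By those spans the matches of Cpt1a and Pparg lie inside the gene, and that of Plin2 lies before it. The windows of Ppard, Cpt2, Hadha and Acadl hold no such run of letters. A match here is a run of letters and no measured binding.

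Cpt1a (ENSMUSG00000024900.5, chromosome 19, 3322334 to 3385733, plus strand) encodes the liver form of carnitine palmitoyltransferase 1, which malonyl-CoA inhibits and which sets the rate of fatty acid entry into mitochondria. Its level was 33.7, 33.6 and 33.7 CPM in the WT libraries and 51.9, 58.1 and 52.7 CPM in the KO libraries. The WT values lay closer together than counting error alone gives on average (coefficient of variation 0.246%, counting 2.25%), and all KO values were far above them. The log2 fold change was 0.68 ± 0.07 (95% interval 0.52 to 0.84, adjusted p = 0.000284), and 7.65% of tested genes changed by more in either direction. The call held under all 19 alternatives, with log2 fold changes of 0.63 to 0.74. Cpt1b, the muscle form, was listed at 0 in all libraries, and 81.4% of its exons are shared with Gm44502 on the same strand. Decr1 and Stk11, which most cells use, were also listed at 0, so a 0 in this table is given only as listed. Cpt1c, a brain form, had 0.358 ± 0.0579 and 0.166 ± 0.0308 CPM in WT and KO.

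Cpt2 (ENSMUSG00000028607.16, chromosome 4, 107903981 to 107923610, minus strand), the partner enzyme on the inner membrane, had 31.6, 27.7 and 28.5 CPM in WT and 28.2, 30.4 and 29.5 CPM in KO. The groups overlapped, and the log2 fold change was 0.01 ± 0.08 with a 95% interval of -0.17 to 0.19. The ratio of Cpt1a to Cpt2 per length was 0.585, 0.667 and 0.650 in WT and higher in every KO library, at 1.01, 1.05 and 0.981 (exact two-sided permutation p = 0.1, the smallest this design allows).

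Hadha (ENSMUSG00000025745.12, chromosome 5, 30118304 to 30155162, minus strand) encodes the alpha subunit of the trifunctional protein, which carries out the last steps of each cycle on long chains. It had 213, 194 and 196 CPM in WT and 189, 192 and 186 CPM in KO. The KO values were all slightly lower, with a mean difference of -6.10%, and the difference missed the threshold (log2 fold change -0.09 ± 0.06, adjusted p = 0.309). Hadhb, the beta subunit gene, starts 86 bases away in the opposite direction and had 95.3 ± 2.84 and 99.4 ± 5.24 CPM in WT and KO, with overlap. The ratio of Hadha to Hadhb per length was 1.19, 1.06 and 1.03 in WT and 1.01, 0.941 and 1.00 in KO.

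Acadl (ENSMUSG00000026003.5, chromosome 1, 66830839 to 66863277, minus strand) encodes the long-chain acyl-CoA dehydrogenase, which takes the opening step of the cycle. Its values, 145, 149 and 147 CPM in WT and 142, 135 and 139 CPM in KO, did not overlap, with the KO mean different by -5.62%, and the log2 fold change of -0.08 ± 0.06 was not called (adjusted p = 0.300). For Hadha and Acadl the 95% intervals, -0.23 to 0.05 and -0.21 to 0.05, leave room for a fall smaller than that of Fabp5 or for no change.

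**Figure D3:**
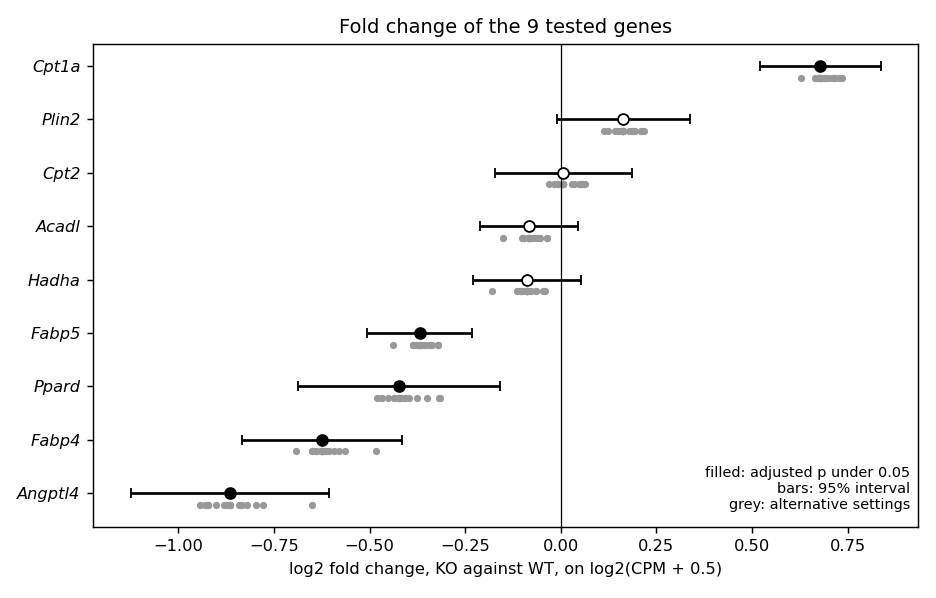
Log2 fold change of KO against WT on the log2(CPM + 0.5) scale for the 9 tested genes, with 95% intervals; filled circles have an adjusted p under 0.05 and grey points are the alternative settings. Cpt1a lies at 0.68, Angptl4 at -0.87, and the intervals of Plin2, Cpt2, Acadl and Hadha include 0.

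Angptl4 had the largest change among the 9 tested genes. It encodes a secreted inhibitor of lipoprotein lipase and is a direct PPAR target that hypoxia also induces. Angptl4 (ENSMUSG00000002289.16, chromosome 17, 33773750 to 33781830, minus strand) had 8.48, 7.35 and 6.64 CPM in WT and 3.71, 4.23 and 3.68 CPM in KO. Every KO value lay well below every WT value. The log2 fold change was -0.87 ± 0.11 (adjusted p = 0.000985), and 4.87% of tested genes changed by more.

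Fabp4 and Fabp5 encode cytosolic fatty acid binding proteins, FABP4 being a PPARγ target in macrophages and adipocytes and FABP5 a carrier that delivers ligand to PPARδ. They lie on the same chromosome, 187480 bases apart. Fabp4 (ENSMUSG00000062515.3, chromosome 3, 10204088 to 10208576, minus strand) had 11.96, 11.8 and 11.5 CPM in WT and 7.37, 6.83 and 8.25 CPM in KO. The WT libraries were nearly equal, and the highest KO library was far below them (log2 fold change -0.63 ± 0.09, adjusted p = 0.00170). Fabp5 (ENSMUSG00000027533.10, chromosome 3, 10012548 to 10016607, plus strand) had 314, 303 and 304 CPM in WT and 243, 243 and 227 CPM in KO, which also did not overlap (log2 fold change -0.37 ± 0.06, adjusted p = 0.00265). Of all runs of 50 bases in the Fabp5 transcripts, 5.48% also occur in other annotated transcripts, those at 0.5% or more being Fabp5l2 and 3 Gm-named genes. The sources used here do not say how the authors assigned such reads. For Fabp4 this share was 0%.

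Whether these neighbours fell in the same proportion was not resolved. Fabp5 exceeded Fabp4 per length 23.8-fold, 23.2-fold and 23.9-fold in the WT libraries and 29.9-fold, 32.4-fold and 24.9-fold in the KO libraries. The ratio of KO replicate 3 lay close to those of WT, the 95% intervals of the log2 fold changes overlapped (-0.84 to -0.42 for Fabp4, -0.51 to -0.23 for Fabp5), and the exact permutation p was 0.1, the smallest possible. Another 3 genes of the family lie between or beside them: Pmp2 and Fabp9 were listed at 0 in all libraries, and Fabp12 had 0.0970 and 0.00947 CPM in WT and KO. Gm9833, an annotated gene between Fabp5 and Fabp4, was called higher in KO (6.01 and 7.79 CPM, log2 fold change 0.34, adjusted p = 0.0438). The next gene beyond Fabp12, Impa1, was not called (log2 fold change 0.07, adjusted p = 0.606).

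Plin2 (ENSMUSG00000028494.12, chromosome 4, 86648386 to 86670060, minus strand) encodes perilipin 2, which coats lipid droplets and rises in macrophages that store lipid. It had 74.4, 64.3 and 68.5 CPM in WT and 74.8, 81.6 and 75.5 CPM in KO. The lowest KO value was just above the highest WT value, and the log2 fold change of 0.16 ± 0.08 was not called (adjusted p = 0.142). Without WT replicate 1, the highest of its group, the difference passed the threshold (log2 fold change 0.22, adjusted p = 0.0379). Relative to Plin3, another droplet coat gene, the Plin2 level per length was 2.11, 1.89 and 2.10 in WT and 2.31, 2.47 and 2.41 in KO.

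**Figure D4:**
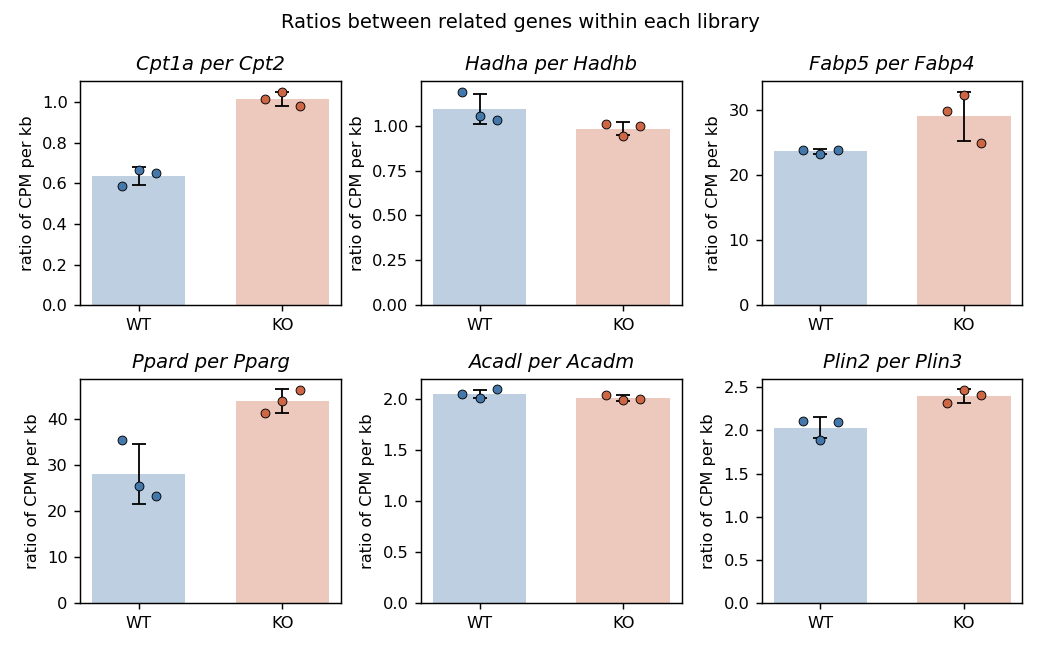
Ratio of CPM per kb between related genes within each library (vertical axes, from 0); points are libraries, bars group means and whiskers ± SD (n = 3). The ratio of Cpt1a to Cpt2 goes from 0.634 to 1.01, and the ratio of Acadl to Acadm overlaps between groups.

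The 10 genes summed to 850, 806 and 811 CPM in WT and 751, 764 and 733 CPM in KO. Without Fabp5, which holds the largest share, the sums were 536, 503 and 507 CPM in WT and 508, 520 and 507 CPM in KO and overlapped. Chromosome medians of the log2 fold change were between -0.07 and 0.00 for the chromosomes of the 9 tested genes, and relative to them Cpt1a stood at 0.71, Ppard at -0.35, Fabp5 at -0.31, Fabp4 at -0.56 and Angptl4 at -0.79.

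The wider pathway was read from 7 lists with 92 other genes, of which 69 were tested. Of these, 8 were higher, 14 lower and 47 not called, with a median log2 fold change of -0.07. These shares are near the background of 13.5% and 16.9%. Of the 69, Fabp3 reached the minimum in WT only, and without it 13 were lower.

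Mitochondrial beta-oxidation showed few calls. Of 18 genes 15 were tested, 0 were higher, 1 was lower and 14 were not called, with a median of -0.08. Over all tested genes 30.4% were called. The groups did not overlap for 5 of the 15, against 46.4% of all tested genes. At an unadjusted p under 0.05 limma also gave 0 higher and 1 lower, and edgeR and DESeq2 each called 0 higher and 1 lower. Acadvl, the very long-chain acyl-CoA dehydrogenase, went from 41.0 ± 2.62 to 31.9 ± 1.81 CPM (log2 fold change -0.36 ± 0.08, adjusted p = 0.0108). Of the Acadvl exons 42.9% overlap Dvl2 on the opposite strand, and no source used here states that strand was used in counting, so reads of that part cannot be assigned to either gene. The call was lost under 2 of 19 alternatives, the run without KO replicate 1 (adjusted p = 0.0515) and the replicate block (adjusted p = 0.0512). Acadm, the medium-chain enzyme, had 76.6 ± 2.34 and 73.8 ± 1.13 CPM in WT and KO, and the ratio of Acadl to it was 2.05 ± 0.0419 and 2.01 ± 0.0251 per length.

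Fatty acid uptake, binding and activation held the most calls for its size, in both directions. The lists were chosen with earlier results of these data known, so this share is not independent of them. Of 10 genes 9 were tested, 3 were higher, 4 lower and 2 not called (median -0.11). Over all tested genes 13.5% were higher and 16.9% lower. Of the 3 higher, Slc27a4 (log2 fold change 0.36, adjusted p = 0.0356) lies on chromosome 2, where the median of tested genes was 0.34. The part of this median in its call was not tested. Acsl1, an acyl-CoA synthetase, was also higher (log2 fold change 0.30, adjusted p = 0.00778), on chromosome 8, where the median was -0.03. Cd36, a scavenger receptor that takes up oxidised lipoprotein and fatty acids, rose from 14.5, 19.4 and 20.5 CPM to 33.5, 32.8 and 34.0 CPM (log2 fold change 0.88 ± 0.13, adjusted p = 0.00151). It is also a PPARγ target, and its direction is opposite to that of Fabp4. Fabp3, the heart form of the binding proteins, fell from 1.66, 1.88 and 2.00 CPM to 0.298, 0.284 and 0.300 CPM (log2 fold change -1.56 ± 0.11, adjusted p = 3.46e-05). It was tested only through its WT level, so its presence among the lower calls is not support for the list, and it is not tested when a WT library is left out. Without it the list had 3 higher and 3 lower of 8 tested genes (median -0.06). Of the Fabp3 exons 9.84% overlap Zcchc17 on the opposite strand. Dbi, the acyl-CoA binding protein, fell to 0.689 of the WT level, from 215 ± 18.7 to 148 ± 7.32 CPM (adjusted p = 0.00180). Acsl5, an acyl-CoA synthetase, fell from 376 ± 7.46 to 298 ± 9.77 CPM (adjusted p = 0.00362), with 8.31% of its exons shared with Zdhhc6 on the opposite strand. Without WT replicate 3 the list held 2 lower calls.

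In peroxisomal oxidation 13 of 14 genes were tested, and 1 was higher, 3 lower and 9 not called (median -0.13). Abcd2, a peroxisomal importer of very long-chain acyl-CoA, fell from 77.5, 96.1 and 91.3 CPM to 36.0, 34.8 and 35.7 CPM (log2 fold change -1.30 ± 0.09, adjusted p = 3.34e-05). Acaa1a, the peroxisomal thiolase, and Pex11a, a factor of peroxisome division, fell to 0.809 and 0.795 of WT (adjusted p = 0.0221 and 0.0486). The call of Acaa1a was lost under 5 of 19 alternatives (without KO replicate 1, KO replicate 3 or WT replicate 3, with TMM and with the replicate block), with adjusted p up to 0.0946. That of Pex11a was lost under 11, among them every run that left out 1 library and quantile normalization, with adjusted p up to 0.236. The list held 1 to 6 calls over the runs that left out 1 library.

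Among genes of lipid droplets, storage and lipolysis, 10 of 17 were tested, with 1 higher, 2 lower and 7 not called (median -0.02). EdgeR and DESeq2 each called 2 higher, the other being Soat1, which makes cholesteryl esters (log2 fold change 0.23 in limma, adjusted p = 0.0559, 0.0358 in edgeR and 0.00695 in DESeq2). Bscl2, which encodes seipin, a protein of droplet assembly, fell from 14.2, 12.5 and 11.5 CPM to 2.02, 1.27 and 2.79 CPM (log2 fold change -2.43 ± 0.21, adjusted p = 0.000119). Lpl, lipoprotein lipase, the enzyme that ANGPTL4 inhibits, rose 1.22-fold, from 148 ± 13.3 to 181 ± 9.39 CPM (adjusted p = 0.0305). Dgat1, which makes triglyceride, fell to 0.787 of WT, from 11.3 ± 1.03 to 8.89 ± 0.457 CPM (adjusted p = 0.0323). The calls of Lpl and Dgat1 were lost without any 1 of the KO libraries (adjusted p = 0.0506 to 0.102 for Lpl and 0.0658 to 0.127 for Dgat1), and under 6 and 7 of 19 alternatives in all, among them the run without WT replicate 3 for Lpl and that without WT replicate 2 for Dgat1.

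PPAR partners and coregulators split evenly, with 2 higher, 2 lower and 8 not called of 12 tested (15 listed, median 0.02). Rxra, which encodes the RXR partner, rose from 124, 105 and 113 CPM to 166, 191 and 174 CPM (log2 fold change 0.63 ± 0.08, adjusted p = 0.00105). Ncoa3, a coactivator, rose from 128 ± 7.83 to 177 ± 16.5 CPM (log2 fold change 0.46 ± 0.08, adjusted p = 0.00476). Rxra and Ncoa3 both lie on chromosome 2, where tested genes had a median log2 fold change of 0.34; its part in these values was not tested. Rxrb and Ncoa1 fell to 0.812 and 0.809 of WT (adjusted p = 0.0221 and 0.0389). The call of Rxrb was lost under 4 of 19 alternatives (without KO replicate 1 or KO replicate 3, with TMM and with the replicate block), with adjusted p up to 0.0944. That of Ncoa1 was lost under 6 (without KO replicate 1, KO replicate 2, WT replicate 2 or WT replicate 3, with no filter and with the replicate block), with adjusted p up to 0.137.

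Of 8 other PPAR targets only 2 were above the minimum, Ucp2 (573 ± 69.1 CPM in WT, 481 ± 39.8 CPM in KO, adjusted p = 0.0991) and Acot2 (12.4 ± 0.153 and 11.5 ± 0.631 CPM, adjusted p = 0.307), and 0 were called by limma (1 at an unadjusted p under 0.05), edgeR or DESeq2. Ucp2, a mitochondrial carrier, passed without WT replicate 2 (adjusted p = 0.0392). Pdk4, a PPAR target in many tissues, was listed at 0 in all libraries.

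Malonyl-CoA, made by the acetyl-CoA carboxylases, inhibits CPT1, and the list of its enzymes and of AMP kinase held 8 tested genes of 10, with 1 higher, 2 lower and 5 not called (median 0.08). Acacb, the carboxylase at the mitochondrial surface, rose 1.48-fold, from 11.4, 10.6 and 9.28 CPM to 13.4, 15.8 and 17.1 CPM (log2 fold change 0.54 ± 0.12, adjusted p = 0.0103). Acaca, the cytosolic carboxylase, fell from 172 ± 4.07 to 146 ± 12.4 CPM (adjusted p = 0.0481), and Mlycd, which breaks malonyl-CoA down, from 22.4 ± 1.87 to 18.2 ± 0.911 CPM (adjusted p = 0.0345). The calls of Acaca and Mlycd were lost under 13 and 11 of 19 alternatives, among them edgeR (adjusted p = 0.0582 and 0.0641) and the run without KO replicate 1 (adjusted p = 0.171 and 0.104).

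**Figure D5:**
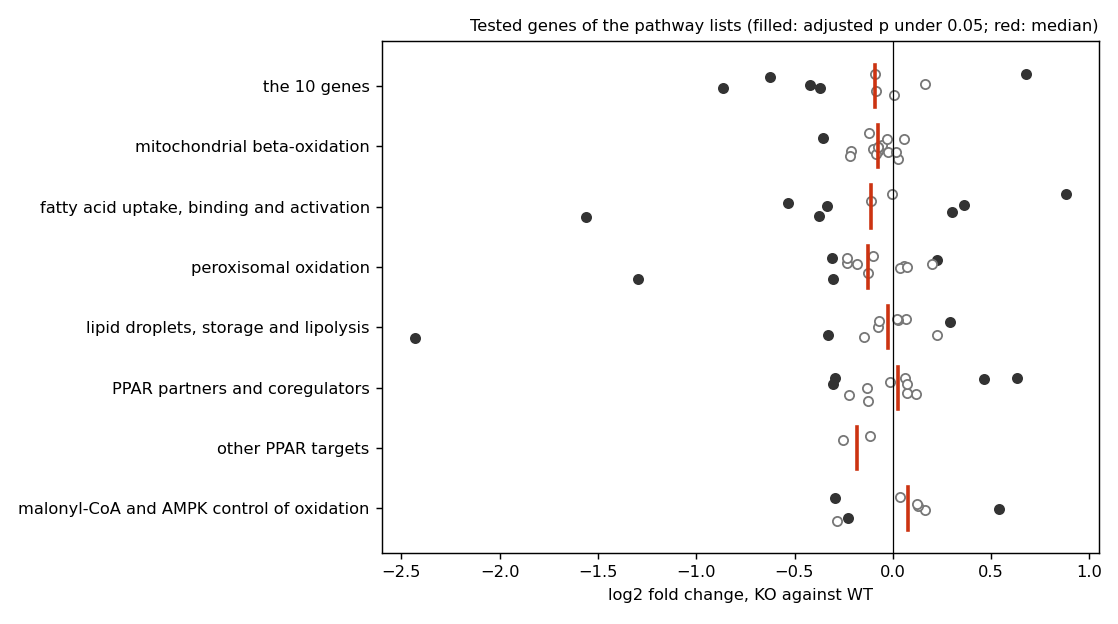
Log2 fold change of KO against WT for the tested genes of each list (1 row a list, points shifted up or down to separate them); filled points have an adjusted p under 0.05 and red lines are medians. The medians lie between -0.18 and 0.08, and Bscl2 (-2.43) and Abcd2 (-1.30) lie far from them, as does Fabp3 (-1.56), which reached the minimum in WT only.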

How the data were processed

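Poly(A) RNA was sequenced as paired-end reads, per the labels' protocols, and the build mm10 and the tools STAR 2.6.0a, Trim Galore, SAMtools, Picard and FastQC are named, with no order, in the submitters' processing notes. Duplicates were removed, per the file headers. The sources used here do not give the counter, the gene models or the strand setting. The authors deposited CPM for 24848 symbols. Values were whole multiples of 1 read in 100% of cases (tolerance 0.01 of a read), which gave 50493447 to 70411383 reads per library and a limit for a count of 0 (3 reads) of 0.0426 to 0.0594 CPM.

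Genes that reached 1 CPM in at least 3 of 6 libraries entered limma 3.58.1 under R 4.3.3, as log2(CPM + 0.5) (eBayes with trend, no covariates, Benjamini-Hochberg over all tested genes). Folds are ratios of mean CPM, and errors of levels are SD over 3 libraries. The fit was tested on simulated counts. Positions, lengths and overlaps come from GENCODE M21 (mm10), matched by symbol. Alternatives were other pseudocounts, filters, scalings and limma settings, leaving out each library, and edgeR 4.0.16 (3359 genes called) and DESeq2 1.42.0 (3758) on the recovered reads. Among them 3 were chosen after the data were seen: length and GC trend removal, rescaling without Rn45s, and edgeR without a filter. So were the values without Lyz2 and without Fabp3. The 10 genes and the lists were chosen with earlier results of these data known. Named pathway genes are the called genes of a list with the lowest adjusted p (at most 4), or its 2 with the highest level. Slc27a4, Acsl1 and some other genes are named beside those of this rule. The values of 1 gene that this rule names are not reported here. RNA editing was not analysed here.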

Additional observations from a re-analysis of the deposited data

How the results depend on the processing

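Of the 5 calls among the 10 genes, those of Cpt1a, Angptl4, Fabp4 and Fabp5 held under all 19 alternatives, and that of Ppard under 15. Over the runs that left out 1 library the genes called were 4 to 6, with 1 to 2 higher and 3 to 4 lower. With the length and GC trend removed 2 were higher, Plin2 being added (adjusted p = 0.0174). Deviations of same-numbered WT and KO libraries from their group means correlated at -0.25, -0.64 and -0.17. Those of differently numbered libraries correlated at -0.44 to 0.61. The deviations of a group sum to 0, so these values depend on each other. They cannot decide whether the replicate number pairs the plates. With the replicate block 4 of the 10 genes were called (Ppard was lost, adjusted p = 0.0778), 9 pathway genes (4 higher, 5 lower) and 2009 of all genes (891 higher, 1118 lower). With the length and GC trend removed 4852 of all genes were called, 2435 of them higher, and 13 pathway genes were higher. Leaving out 1 library gave 1918 to 3527 calls over all genes (913 to 1643 higher, 1005 to 1884 lower) and 10 to 21 among the pathway genes (5 to 9 higher, 5 to 12 lower). These runs have fewer samples, and the cause of the other differences was not tested. The sign of Cpt2 changed under 4 alternatives and that of Acot2 under 1, and neither was called in any. Among Apobec1, the 10 genes and the pathway genes named by the rule, no other changed sign. Depth limits Pparg most, with counting errors of 20.1% in WT and 28.1% in KO per library.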

Other observations

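Of the 92 pathway genes 23 were below the minimum for the test, and 12 of these were listed at 0 in all libraries, namely Cpt1b, Decr1, Fabp7, Lipe, G0s2, Cidec, Rxrg, Pdk4, Acot1, Vldlr, Olr1 and Stk11. Decr1 and Stk11 are genes that most cells use, and why they are at 0 was not tested. The groups did not overlap for 4 of the other 11, against 46.4% of all tested genes. The share among all genes below the minimum was not computed. These 4 genes were named after their values were seen. Ppargc1a, which encodes the PPAR coactivator PGC-1α, had 18, 27 and 26 reads in WT and 2, 0 and 1 reads in KO, a KO to WT ratio of 0.0378 (95% exact counting interval 0.00762 to 0.115). It passed in limma without a filter (adjusted p = 4.80e-05) and in edgeR without a filter (adjusted p = 1.41e-05). Its relative Ppargc1b had 23.01 ± 1.73 and 24.04 ± 1.097 CPM in WT and KO and was not called (adjusted p = 0.599). Cpt1c had 63 reads over the WT libraries and 33 over the KO libraries (ratio 0.469, interval 0.298 to 0.726, edgeR adjusted p = 0.0264). The droplet coat gene Plin4 had 9 and 2 reads and the uncoupling protein gene Ucp3 8 and 1 reads, and neither passed in limma or edgeR without a filter.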
